A study of Mus musculus with 8 samples.

Results

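The thiazide-sensitive sodium chloride cotransporter gene Slc12a3 and 8 genes of the kinase cascade that controls its protein were followed in RNA-seq of whole mouse kidneys. The 9 genes were taken by symbol (Slc12a3, Wnk1, Wnk4, Klhl3, Cul3, Stk39, Oxsr1, Cab39 and Cab39l), and all 9 were found among the 47729 gene identifiers of the deposited tables and passed the filter on low counts. The knockout group (KO) was 4 kidney samples from mice with a Six2-driven Cre and both Kctd1 alleles floxed, and the wildtype group (WT) was 4 samples from littermate controls, all taken on postnatal day 8. Six2-Cre acts in nephron progenitors, so recombination is expected in the nephron epithelium and not in collecting duct, stroma, vessels or blood cells. Whether the controls carried Cre or a floxed allele, the strain, and whether each sample came from a different animal were not stated, so p-values measure the spread between these samples.

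The cotransporter, often called NCC, takes up sodium and chloride across the apical membrane of the distal convoluted tubule and is the target of thiazide diuretics. WNK kinases sense chloride and phosphorylate the kinases SPAK (gene Stk39) and OSR1 (gene Oxsr1), which bind the scaffold protein MO25 (genes Cab39 and Cab39l) and in turn phosphorylate and activate the cotransporter. KLHL3 is the adaptor that brings WNK kinases to the CUL3 ubiquitin ligase for degradation. In humans, loss of SLC12A3 causes the salt-wasting Gitelman syndrome, and mutations of WNK1, WNK4, KLHL3 or CUL3 cause familial hyperkalaemic hypertension. Much of this control acts on protein phosphorylation and stability, which RNA-seq does not measure.

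Libraries held 14457760 to 20741076 counts. Kctd1, the deleted gene, measured 22.4 to 25.8 CPM (read counts scaled to a common library size with TMM factors) in KO and 28.9 to 32.6 CPM in WT, so that KO kept 77.0% of the WT mean. For Kctd1 an adjusted p of 0.05, the threshold used throughout, was missed by edgeR (Benjamini-Hochberg adjusted p = 0.279) but was met by DESeq2 (adjusted p = 0.0220). Defining markers of each nephron segment were detected, and each of the 45 marker genes examined had counts in at least 1 library. The ribosomal gene Rn18s-rs5 took 5.39% of the reads of KO replicate 2, and 0.361% to 1.14% elsewhere. KO replicate 2 and WT replicate 3 were the libraries with abundant Xist reads, 81994 and 101295 counts, against at most 151 elsewhere. The value without these libraries is given for Slc12a3, the member whose call it changes.

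Slc12a3 was the member with the largest fall in KO kidneys, and the 1 member that edgeR called. It measured 271, 257, 202 and 257 CPM in KO 1 to 4, against 435, 484, 453 and 483 CPM in WT 1 to 4. The groups were far apart, with the highest KO library well below the lowest WT library. The means were 247 ± 30.9 CPM in KO and 464 ± 23.9 CPM in WT (SD, n = 4 each), so KO kept 53.2% of the WT level. The log2 fold change was -0.91 ± 0.09 (SE), with a 95% interval of -1.12 to -0.70 (edgeR's quasi-likelihood test, adjusted p = 0.00634 by Benjamini-Hochberg over all genes tested). Over the deposited counts the gene was deeply covered, with 2921 to 10054 counts per library. In whole-kidney RNA, fewer cells of a segment and less RNA per cell cannot be told apart. Without KO replicate 2 and WT replicate 3 together the log2 fold change was -0.94 and missed the threshold (adjusted p = 0.0715).

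Among the 9 members edgeR thus called 1 lower and 0 higher, where 0.0485% of the 18548 genes tested were called lower and 0.0323% higher. DESeq2 called 2 members lower, Slc12a3 and Wnk4, and 0 higher, where it called 0.43% of its 23019 genes lower and 0.239% higher. In 4 members, Slc12a3, Wnk4, Klhl3 and Stk39, every KO library lay below every WT library, an arrangement found for 2.06% of all genes tested, while the opposite one (1.97% of all genes) was found for 0 members. The same 4 had an unadjusted p under 0.05, as did 3.08% of all genes in that direction, and 0 members did in the other (3.11% of all genes). Over the 9 members the median was -0.17 on the log2 scale, with 7 negative and 2 positive, beside 0.0012 over all genes tested.

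Groups were apart for the WNK kinase gene Wnk4 and overlapped for Wnk1, but the difference between these 2 genes missed the threshold. Wnk4, the WNK kinase most tied to the distal convoluted tubule, measured 163, 164, 167 and 139 CPM in KO 1 to 4, against 242, 222, 190 and 207 CPM in WT 1 to 4. All KO values lay below all WT values, and the means were 158 ± 13.1 CPM in KO and 215 ± 22.3 CPM in WT (SD, n = 4 each). Its log2 fold change of -0.44 ± 0.09 (SE), with a 95% interval of -0.65 to -0.24, was not called by edgeR (Benjamini-Hochberg adjusted p = 0.211) but was called by DESeq2 (adjusted p = 0.00369). Over all alternatives the adjusted p of Wnk4 ran from 0.00369 to 0.488. Wnk1, which is expressed in many tissues and also yields a short kidney-specific form without most of the kinase domain, measured 409, 496, 395 and 380 CPM in KO and 464, 481, 454 and 495 CPM in WT. The groups overlapped through KO replicate 2, which was the highest of all 8 libraries for Wnk1. The log2 fold change was -0.17 ± 0.09 (SE; 95% interval -0.37 to 0.02; edgeR adjusted p = 0.837), and without KO replicate 2 it was -0.26 (adjusted p = 0.292). The gene totals do not separate the long and the kidney-specific forms of Wnk1. The log2 ratio of Wnk4 to Wnk1, chosen after the values were seen, was lower in KO by 0.26 on average with overlapping groups (exact two-sided permutation test, p = 0.0857, adjusted over 3 such pairs p = 0.129).

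Of the ubiquitin ligase genes, the KO libraries lay below the WT libraries for the adaptor Klhl3 and among them for the cullin Cul3. Klhl3 measured 14.8, 15.4, 10.1 and 12.7 CPM in KO 1 to 4, against 18.7, 17.2, 16.9 and 17.98 CPM in WT 1 to 4. The groups did not overlap, but the KO libraries spread more widely (13.3 ± 2.39 CPM) than the WT libraries (17.7 ± 0.80 CPM, SD, n = 4 each). The log2 fold change of -0.41 ± 0.14 (SE; 95% interval -0.71 to -0.11) missed the threshold with edgeR (adjusted p = 0.590) and with DESeq2 (adjusted p = 0.317). Cul3, the cullin that KLHL3 shares with many other adaptors, measured 103, 107, 116 and 111 CPM in KO and 98.8, 107, 104 and 112 CPM in WT. These groups overlapped throughout, at a log2 fold change of 0.05 ± 0.07 (SE), and the 95% interval of -0.10 to 0.20 excludes a change as large as that of Slc12a3 (edgeR adjusted p = 0.950).

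Among the effector kinase genes, groups were apart for Stk39 and overlapped for Oxsr1, and their difference missed the threshold after adjustment. Stk39 measured 51.7, 54.8, 35.8 and 42.9 CPM in KO 1 to 4, against 57.2, 63.3, 56.9 and 55.7 CPM in WT 1 to 4. The highest KO library lay only just below the lowest WT library, and KO replicate 3, the lowest library for Slc12a3 and Klhl3, was also the lowest for Stk39. The log2 fold change was -0.33 ± 0.13 (SE; 95% interval -0.61 to -0.05) and missed the threshold with edgeR (adjusted p = 0.706) and with DESeq2 (adjusted p = 0.545). Oxsr1, the close relative of Stk39, measured 79.3, 74.5, 69.4 and 69.4 CPM in KO and 70.9, 64.3, 72.2 and 67.9 CPM in WT. Its groups overlapped, with a log2 fold change of 0.09 ± 0.07 (SE; 95% interval -0.08 to 0.25; edgeR adjusted p = 0.925). The log2 ratio of Stk39 to Oxsr1 was 0.98 ± 0.21 in KO and 1.41 ± 0.15 in WT (SD, n = 4 each), with groups that did not overlap (exact two-sided permutation test, p = 0.0286, the smallest that 70 relabelings allow). This pair was chosen after its values were seen, and adjusted over the 3 such pairs the exact p was 0.0857.

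Both scaffold genes overlapped between the groups. Cab39 measured 130 to 135 CPM in KO and 132 to 141 CPM in WT, at a log2 fold change of -0.06 ± 0.06 (SE; 95% interval -0.18 to 0.07; edgeR adjusted p = 0.939). Cab39l measured 60.0 to 75.3 CPM in KO and 66.3 to 73.0 CPM in WT, at -0.03 ± 0.09 (SE; 95% interval -0.23 to 0.17; edgeR adjusted p = 0.982). For Cab39l, KO 1 and 4 lay above all WT libraries while KO 2 and 3 lay below them. The direction of Cab39l turned positive without KO replicate 2 (0.0026) or KO replicate 3 (0.02), so no direction is given for it.

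**Figure D1:**
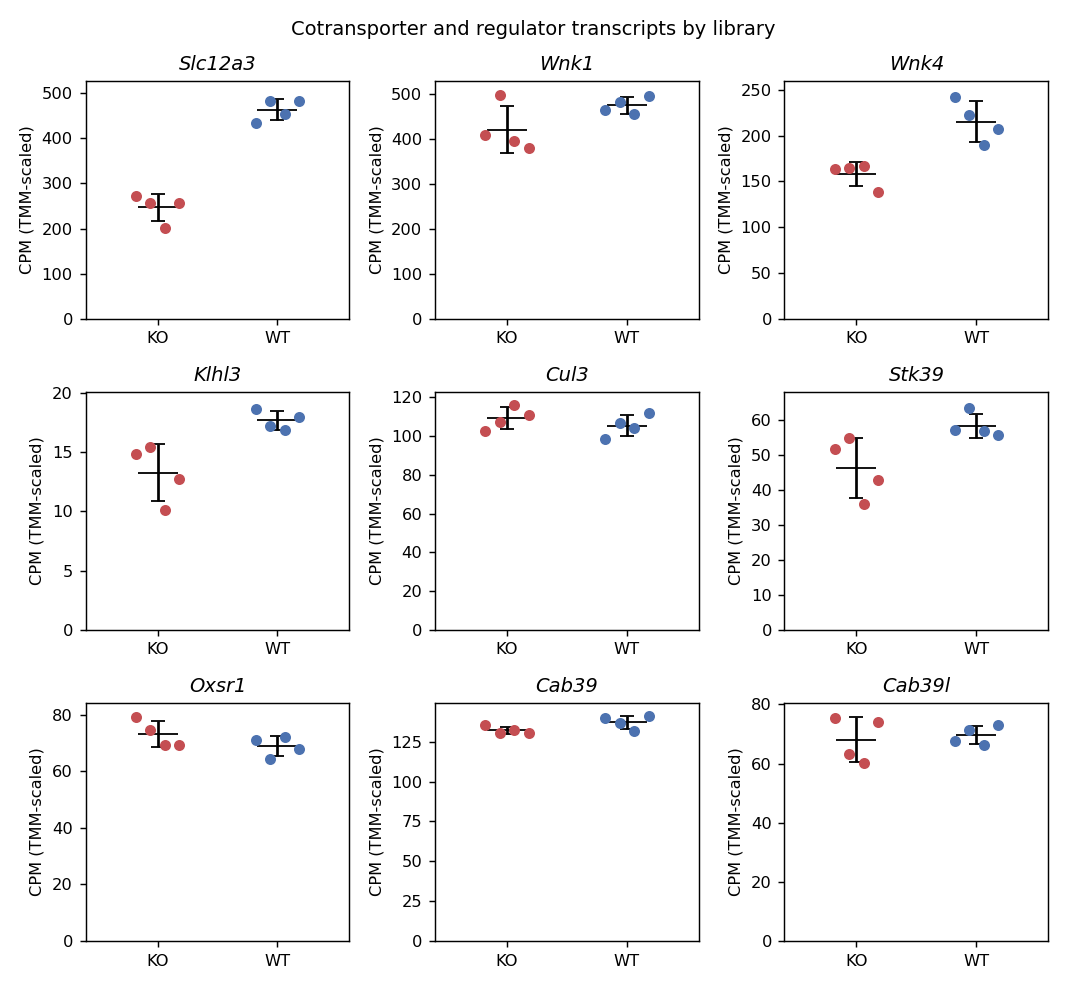
TMM-scaled CPM of each of the 9 genes (vertical axes, starting at 0) in 4 KO and 4 WT libraries; points are libraries, and the bar and whiskers are the mean and SD. Slc12a3 is at 202 to 271 CPM in KO and 435 to 484 CPM in WT, while the points of Cul3, Oxsr1, Cab39 and Cab39l overlap between the groups.

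The promoters of the 4 members whose KO libraries all lay below the WT libraries are shown for their start regions and for any match to the AP-2 consensus, since KCTD1 is known to repress AP-2 transcription factors. The windows cover 250 bases before to 50 bases after the start of the gene, read 5′ to 3′ on the gene's strand, from RefSeq on GRCm38.p6. The searched motif was GCCNNNGGC, a palindrome that reads the same on both strands, and capitals mark its matches. Slc12a3 lies at chr8:94328958-94329257 (plus strand), Wnk4 at chr11:101260317-101260616 (plus strand), Klhl3 at chr13:58113598-58113897 (minus strand) and Stk39 at chr2:68471932-68472231 (minus strand).
Slc12a3: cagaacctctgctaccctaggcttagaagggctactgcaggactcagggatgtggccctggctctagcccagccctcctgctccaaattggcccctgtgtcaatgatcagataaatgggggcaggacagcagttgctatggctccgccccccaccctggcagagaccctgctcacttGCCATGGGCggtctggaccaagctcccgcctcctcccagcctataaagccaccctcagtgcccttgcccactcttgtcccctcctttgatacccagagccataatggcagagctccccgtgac
Wnk4: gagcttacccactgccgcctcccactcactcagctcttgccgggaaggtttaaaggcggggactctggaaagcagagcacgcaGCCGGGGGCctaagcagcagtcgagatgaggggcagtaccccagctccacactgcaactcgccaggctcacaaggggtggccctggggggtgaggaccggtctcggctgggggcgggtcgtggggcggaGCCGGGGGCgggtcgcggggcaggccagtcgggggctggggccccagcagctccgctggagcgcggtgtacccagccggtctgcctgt
Klhl3: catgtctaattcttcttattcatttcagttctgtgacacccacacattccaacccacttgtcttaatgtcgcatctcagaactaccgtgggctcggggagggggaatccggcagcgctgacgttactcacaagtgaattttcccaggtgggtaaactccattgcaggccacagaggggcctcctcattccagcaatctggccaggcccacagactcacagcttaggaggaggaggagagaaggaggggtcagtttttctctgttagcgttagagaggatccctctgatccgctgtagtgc
Stk39: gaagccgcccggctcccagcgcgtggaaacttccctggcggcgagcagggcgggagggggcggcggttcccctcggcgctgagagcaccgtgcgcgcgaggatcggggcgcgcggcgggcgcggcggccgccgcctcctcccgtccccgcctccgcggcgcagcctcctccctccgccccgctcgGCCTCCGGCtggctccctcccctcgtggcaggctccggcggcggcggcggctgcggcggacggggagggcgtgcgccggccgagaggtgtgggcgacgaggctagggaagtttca

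The Slc12a3 window held 1 match, whose first base was 73 bases upstream of the start. The Wnk4 window held 2, beginning 167 and 38 bases upstream, the Stk39 window held 1, beginning 65 bases upstream, and the Klhl3 window held 0. Of the other members, Wnk1 and Cab39 had a match, at 65 and 29 bases upstream, and Cul3, Oxsr1 and Cab39l did not. A window with the motif was thus present for 5 of the 9 members, and the motif was present in 16.6% of the 32851 windows of this length. The motif is rich in G and C. The G and C content was 60.3% in the Slc12a3 window, 70.7% in that of Wnk4, 80.0% in that of Stk39 and 52.3% in that of Klhl3, beside a median of 52.7% over all windows. A match is a description of the letters, and no binding was measured.

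Whether the cotransporter changed by a different amount from its regulators was tested on ratios within each library, which do not depend on how libraries are scaled. Slc12a3 was lower relative to 7 of the 8 regulators, with KO libraries all below WT libraries for each of the 7 (exact two-sided permutation test, p = 0.0286, the smallest that 70 relabelings allow, Benjamini-Hochberg adjusted over the 8 ratios p = 0.0327). All 8 ratios share Slc12a3, whose own groups were far apart, and were chosen with earlier results of these data known. The 7 are therefore not independent, and a ratio to a regulator that hardly changed largely repeats the result for Slc12a3. The widest gap was to Oxsr1, with a log2 TPM ratio of 2.13 ± 0.15 in KO and 3.14 ± 0.14 in WT (SD, n = 4 each), a 2.01-fold lower ratio. Slc12a3 fell 1.96-fold relative to Cul3, 1.84-fold relative to Cab39l, 1.82-fold relative to Cab39 and 1.67-fold relative to Wnk1. The gap was smaller for regulators whose own KO libraries lay below the WT libraries, at 1.48-fold relative to Stk39 and 1.40-fold relative to Klhl3. A ratio difference is the log2 change of Slc12a3 less that of the regulator, so this follows from their fold changes. The ratio to Wnk4 measured -0.91, -0.996, -1.37 and -0.75 in KO 1 to 4, against -0.79, -0.52, -0.38 and -0.42 in WT 1 to 4. These groups overlapped by KO replicate 4 and WT replicate 1, and the difference of -0.48 ± 0.16 (SE) missed the threshold (exact two-sided permutation test, p = 0.0571, and the same after adjustment over the 8 ratios). The ratio of Cab39 to Cab39l was 0.62 ± 0.16 in KO and 0.64 ± 0.05 in WT (SD, n = 4 each; exact permutation test, p = 0.886).

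Levels were compared between genes per length, with the deposited TPM, Salmon's length-normalised transcript abundance. In KO the order was Wnk1 (117 ± 4.31 TPM), Wnk4 (73.9 ± 9.27), Cul3 (54.998 ± 8.60), Slc12a3 (37.1 ± 6.84), Cab39 (17.2 ± 2.48), Stk39 (16.6 ± 2.63), Cab39l (11.3 ± 2.47), Oxsr1 (8.41 ± 1.18) and Klhl3 (2.10 ± 0.36 TPM, SD, n = 4). In WT it was Wnk1 (147 ± 10.1 TPM), Wnk4 (111 ± 11.8), Slc12a3 (76.6 ± 5.26), Cul3 (58.3 ± 4.73), Stk39 (23.1 ± 0.70), Cab39 (19.6 ± 1.27), Cab39l (12.6 ± 0.90), Oxsr1 (8.70 ± 0.64) and Klhl3 (3.10 ± 0.23 TPM, SD, n = 4). By TPM, Slc12a3 was below Cul3 in 4 of 4 KO libraries and above it in 4 of 4 WT libraries. By TPM, Stk39 and Cab39 could not be ordered in KO, where Stk39 was the higher in 2 of 4 libraries. Stk39 was the higher by TPM in 4 of 4 WT libraries. In KO the ranges over libraries also overlapped between Cab39 and Cab39l and between Cab39l and Oxsr1, although Cab39 was above Cab39l, and Cab39l above Oxsr1, within each of the 4 KO libraries.

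The order depends on the length that is used, at the top and further down. Salmon divides by the length of the transcripts it assigns, and Wnk4 carried 0.321 times as many counts per TPM as Slc12a3 although its longest transcript in the GENCODE annotation (4117 bases) is 0.955 times as long as that of Slc12a3 (4310 bases). Cul3 (0.299 times) and Wnk1 (0.532 times, with a longest transcript of 11330 bases) also had few counts per TPM. With CPM per kilobase of the longest annotated transcript, added after the data were seen, Slc12a3 came first in both groups, at 57.3 ± 7.17 in KO and 107.7 ± 5.55 in WT (SD, n = 4 each). Wnk4 followed at 38.5 ± 3.18 in KO and 52.3 ± 5.43 in WT, and Wnk1 at 37.1 ± 4.61 in KO and 41.8 ± 1.61 in WT. In KO the ranges of Wnk4 (33.7 to 40.5), Wnk1 (33.5 to 43.8) and Cab39 (34.2 to 35.6) overlapped, so these 3 could not be ordered there. Klhl3 was last under both measures, at 1.86 ± 0.33 CPM per kilobase in KO and 2.48 ± 0.11 in WT. The fold changes given between genotypes were taken from TMM-scaled counts, and TPM entered as levels, as ratios and orders within a library and as an alternative scale. The median difference in log2(TPM + 1) over genes with a mean of at least 1 TPM was -0.13 for KO minus WT, with -0.40 in KO replicate 2 alone.

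**Figure D2:**
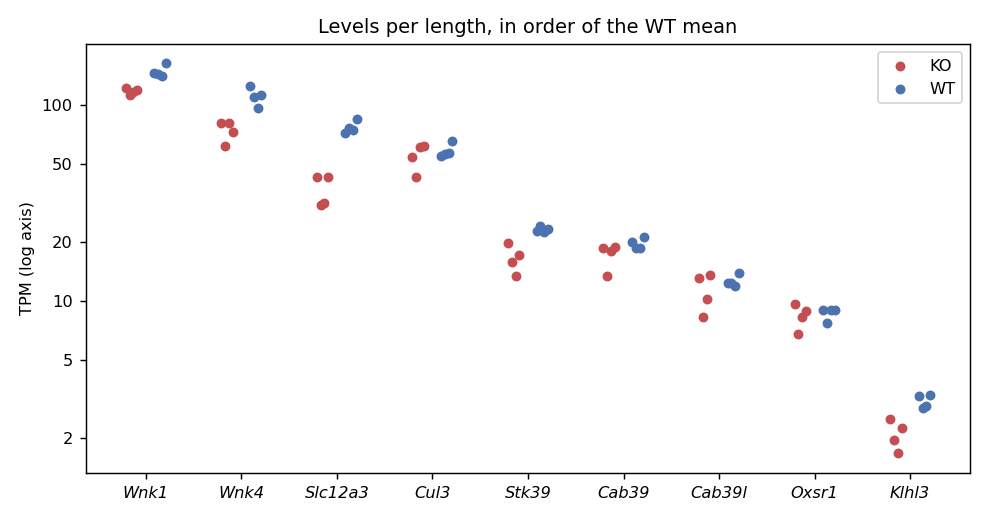
Deposited TPM of each member (vertical log axis) in the 4 KO and 4 WT libraries, with genes in order of the WT mean; points are libraries. Slc12a3 sits at 30.8 to 43.0 TPM in KO and 72.2 to 84.1 TPM in WT, below Cul3 in KO and above it in WT. With the length of the longest annotated transcript instead, Slc12a3 lay above Cul3 in both groups.

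In the GENCODE annotation of GRCm38, Slc12a3 lies on chromosome 8 from 94329201 to 94366214 (plus strand) with 7 annotated transcripts, and no annotated gene overlaps it, which was also the case for Stk39 and Cab39. Wnk4 lies on chromosome 11 from 101260567 to 101277409 (plus strand) and overlaps the antisense gene Gm11615. Wnk1 lies on chromosome 6 from 119923969 to 120038672 (minus strand) with 26 annotated transcripts. Cab39l, on chromosome 14 from 59440972 to 59585764 (plus strand), overlaps the coding gene Cdadc1 on the other strand. Oxsr1 overlaps the coding gene Slc22a14 on its own strand, where strand cannot separate the reads. Wnk1, Klhl3, Cul3 and Oxsr1 also overlap non-coding or unconfirmed genes on their own strands. The library kit keeps strand, but whether counting used it was not stated, so values of overlapping genes are less certain. Reads shared between the relatives Stk39 and Oxsr1, Cab39 and Cab39l, or Wnk1 and Wnk4 were not examined.

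Beyond the 9 members, 33 genes that act with the cotransporter or its kinases are described, and all 33 were tested. With edgeR 0 passed the threshold, and at an unadjusted p under 0.05 there were 4 lower and 1 higher, beside 3.08% lower and 3.11% higher over all genes tested. DESeq2 placed 2 of the 33 past its threshold, both lower, beside 0.43% lower over all its genes. Their median log2 fold change was -0.02, with 19 negative and 14 positive. Every KO library lay below every WT library for 2 of them, Ppp1r1a and Kcnj10, the same 2 that DESeq2 called, beside 2.06% of all genes tested. Ppp1r1a, which encodes an inhibitor of protein phosphatase 1 that is known from the distal convoluted tubule, measured 48.0, 36.4, 40.3 and 38.6 CPM in KO 1 to 4, against 59.4, 72.4, 63.3 and 63.0 CPM in WT 1 to 4. No KO library reached the lowest WT library, at a log2 fold change of -0.66 ± 0.10 (SE; edgeR adjusted p = 0.0599, DESeq2 adjusted p = 8.8e-06).

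Kcnj10, the potassium channel subunit of the distal convoluted tubule, measured 67.3 ± 6.80 CPM in KO and 93.0 ± 3.64 CPM in WT (SD, n = 4 each; log2 fold change -0.47, edgeR adjusted p = 0.127, DESeq2 adjusted p = 2.9e-04). Kcnj16, which encodes the partner subunit of Kcnj10, was at -0.02 on the log2 scale and overlapped between the groups. The calcium-sensing receptor gene Casr measured 34.1 ± 7.89 CPM in KO and 26.3 ± 2.29 CPM in WT, with overlapping groups (edgeR adjusted p = 0.734). Kcnj16 and Casr were named after their values were seen.

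Slc12a1, the furosemide-sensitive cotransporter of the thick ascending limb and another target of SPAK and OSR1, measured 1102, 980, 899 and 928 CPM in KO 1 to 4, against 1210, 1208, 1082 and 1170 CPM in WT 1 to 4. The groups overlapped by KO replicate 1, and Slc12a1 was not called at -0.26 ± 0.08 (log2, SE; edgeR adjusted p = 0.553). It had the smallest p of the 6 other SLC12 genes, and 4 of the 6 had negative values. Slc12a5, a potassium chloride cotransporter gene named after its values were seen, measured 4.49 ± 0.95 CPM in KO and 6.47 ± 1.14 CPM in WT (SD, n = 4 each). Its groups overlapped, with a log2 fold change of -0.52 (95% interval -0.97 to -0.07; edgeR adjusted p = 0.711). For the 2 other WNK genes, Wnk3 had the smaller p, at 3.69 ± 0.43 CPM in KO and 3.98 ± 0.82 CPM in WT. Of 5 genes of the cullin ligase and its regulators, Cand1, which exchanges cullin adaptors, had the smallest p, at 111 ± 13.9 CPM in KO and 119 ± 9.74 CPM in WT. Of 5 other kinase and pseudokinase genes that act with MO25, Stk26 had the smallest p (16.5 ± 1.29 CPM in KO and 14.9 ± 1.47 CPM in WT). Of 6 genes of steroid and ubiquitin control, Nr3c1, the glucocorticoid receptor gene, had the smallest p (114 ± 9.50 CPM in KO and 110 ± 6.32 CPM in WT). The groups of Wnk3, Cand1, Stk26 and Nr3c1 overlapped, with edgeR adjusted p of 0.916 to 0.970.

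**Figure D3:**
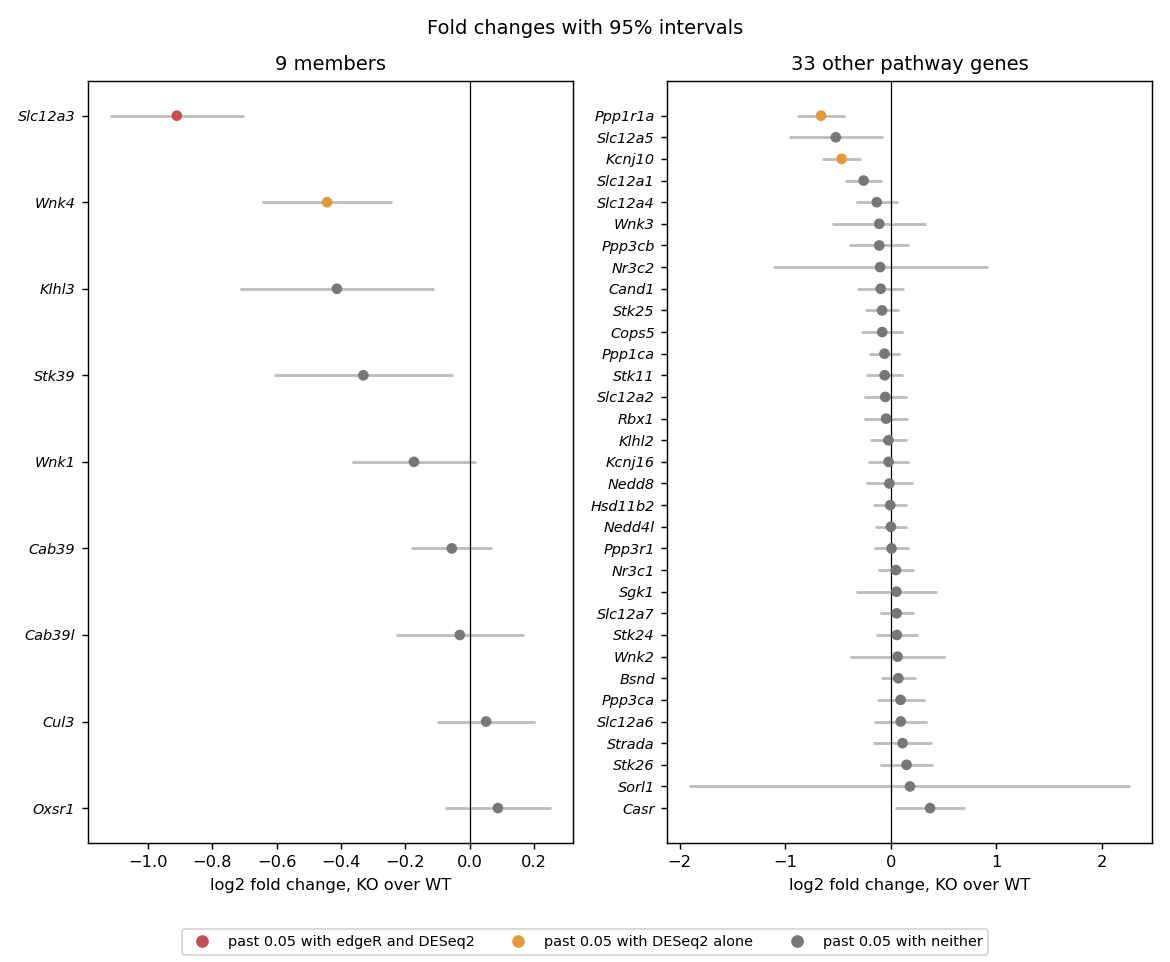
Log2 fold change of KO over WT (horizontal axes) with its 95% interval from edgeR for the 9 members (left) and 33 other genes of the pathway (right); colours mark which test passed an adjusted p of 0.05. Slc12a3 (-0.91) is the 1 gene past the threshold with edgeR, and Wnk4, Ppp1r1a and Kcnj10 passed with DESeq2 alone.

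Markers of the distal convoluted tubule were lower in KO on average, by unequal amounts. Their summed level over 6 genes (Pvalb, Trpm6, Tmem52b, Cnnm2, Egf and Kcnj10) was 334 to 383 CPM in KO and 464 to 520 CPM in WT, with 6 of 6 negative and 0 without counts. At an unadjusted p under 0.05 there were 4 lower (3.08% of all genes tested). EdgeR called 1 lower, Pvalb (0.0485% of all genes tested), and DESeq2 called 3 lower, Pvalb, Egf and Kcnj10 (0.43% of its genes). Kcnj10 is also 1 of the 33 genes above. The markers were listed with earlier results of these data known, so these counts are a description and not independent support. The groups overlapped for Trpm6, Tmem52b and Cnnm2, at -0.60, -0.14 and -0.15 on the log2 scale (edgeR adjusted p of 0.698 to 0.907). Tmem52b made up most of the summed level, with 228 CPM of a mean of 365 CPM in KO and 252 of 484 CPM in WT. Summed markers also did not overlap for 3 podocyte genes (559 to 709 CPM in KO and 740 to 894 CPM in WT) and 3 macrophage genes (67.8 to 72.1 CPM in KO and 74.3 to 79.7 CPM in WT). Csf1r made up most of the macrophage sum, with 52.5 of a mean of 69.9 CPM in KO and 59.6 of 77.4 CPM in WT. It was not called (edgeR adjusted p = 0.706, DESeq2 adjusted p = 0.571). C1qa and Adgre1 overlapped between the groups, at -0.03 and -0.05 on the log2 scale. The podocyte genes were 3 of 3 negative, and edgeR called 0 of them. DESeq2 called Nphs1 (adjusted p = 0.00862) and Podxl (adjusted p = 0.0209) lower, beside 0.43% of its genes, while Synpo overlapped between the groups. The 6 thick ascending limb genes summed to 2388 to 2769 CPM in KO and 2212 to 2422 CPM in WT, although 4 of the 6 were negative. Among them Umod, the uromodulin gene, named after its values were seen, measured 1113 to 1341 CPM in KO and 768 to 929 CPM in WT (edgeR adjusted p = 0.0599, DESeq2 adjusted p = 3.55e-06), while Slc12a1 was at 83.7% of WT. The 5 proximal tubule genes summed to 3606 to 3765 CPM in KO and 3610 to 3750 CPM in WT. The part of these markers in the lower Slc12a3 level was not tested.

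The genes whose pattern over the 8 libraries was most like that of Slc12a3 were found by the root mean square difference in log2 CPM after centring each gene on its own mean. Slc12a3 itself stood 0.48 (root mean square, log2) from its own mean, and 16874 genes were compared. The nearest was Gpx6, a glutathione peroxidase gene, at a distance of 0.11, with 7.90 ± 1.20 CPM in KO and 16.2 ± 0.68 CPM in WT (SD, n = 4 each). The kininogen gene Kng2 followed at 0.13, with 137 ± 5.49 CPM in KO and 264 ± 6.19 CPM in WT. The transcription factor gene Sall3 stood at 0.17, with 6.75 ± 0.22 CPM in KO and 12.7 ± 1.40 CPM in WT. Rhpn1 (0.17) and the predicted gene Gm27646 (0.17) came next, with 35.8 ± 2.49 and 1.68 ± 0.29 CPM in KO, against 60.2 ± 3.85 and 2.78 ± 0.42 CPM in WT. EdgeR called Gpx6, Kng2, Sall3 and Rhpn1 lower (0.0485% of all genes tested). Gm27646, a weak gene, was called neither by edgeR (adjusted p = 0.588) nor by DESeq2 (adjusted p = 0.492). The distance is led by the difference between the genotypes, and a pattern over 8 libraries is a description.

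For Wnk4, which stood 0.25 from its own mean, the nearest genes were Pygm, Pla1a, Sostdc1, Trim45 and Anpep, at distances of 0.082 to 0.099. Their fold changes were smaller than that of Slc12a3, at -0.30 to -0.36 on the log2 scale, and edgeR called 0 of the 5, with adjusted p of 0.261 to 0.783. DESeq2 called 3 of them lower, Pla1a (adjusted p = 0.0220), Sostdc1 (adjusted p = 0.00809) and Anpep (adjusted p = 0.0174). Sostdc1, which encodes a secreted antagonist of BMP and Wnt signals, measured 196 ± 8.27 CPM in KO and 242 ± 16.4 CPM in WT (SD, n = 4 each). Anpep, the aminopeptidase N gene of the proximal tubule brush border, measured 285 ± 18.7 CPM in KO and 351 ± 19.2 CPM in WT.

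**Figure D4:**
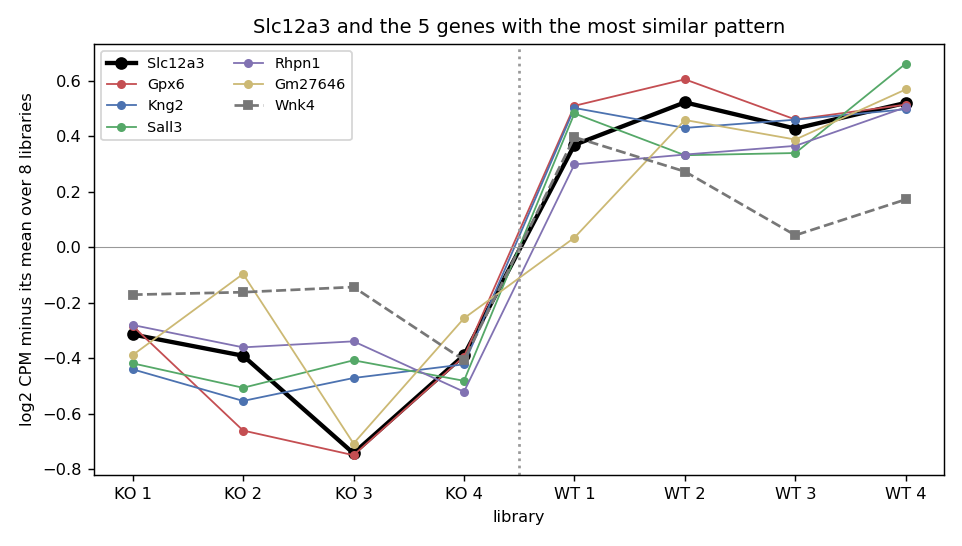
Log2 CPM of Slc12a3, of the 5 genes with the most similar pattern and of Wnk4, each minus its mean over the 8 libraries (vertical axis), by library (horizontal axis, 4 KO left of the dotted line and 4 WT right of it; library numbers have no order). Slc12a3 and Gpx6 are both lowest in KO 3, where Wnk4 is at its highest KO value (167 CPM).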

How the data were processed

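RNA of 4 KO and 4 WT whole kidneys was sequenced from directional libraries, per the labels' protocols. The authors deposited gene-level estimated counts, as whole numbers, and TPM values with Ensembl identifiers and symbols. Salmon, DESeq2 1.14.1 and mm10 are named in the submitters' processing notes, and no annotation release was stated. The count table names no genes, so its 47729 rows were matched in order to those of the TPM table. This match was tested on the 13251 genes that had 50 counts or more throughout. The log2 ratio of count to TPM varied between libraries by a median SD of 6.4e-04, and by 0.280 with rows shifted by 1. Depth limits weak genes such as Klhl3 (147 to 374 counts in a library). No 2 libraries were alike within sampling noise (lowest chi-square per degree of freedom 11.2). KO replicate 2 stood apart, with 64.2 to 102.7 in its pairs against 11.2 to 35.2 in all pairs without it.

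Genotypes were compared over the 18548 genes kept by filterByExpr with TMM scaling and edgeR's quasi-likelihood test (edgeR 4.0.16, R 4.3.3, robust, two-sided), Benjamini-Hochberg adjustment and a threshold of 0.05. Each SE is the size of the log2 fold change divided by the root of its F statistic. Ratios were compared by exact permutation (scipy 1.17.1). The edgeR fit was run on simulated counts, and its outcome is not given here. Alternatives were other scalings and filters, DESeq2 1.42.0, limma 3.58.1 (voom, and log2 TPM with a pseudocount of 1 or 0.1), a replicate block and libraries left out. The members, lists and ratios were chosen with earlier results of these data known. From the wider list, 2 genes are not reported here and were taken out of its counts after their values were seen. All members are named, and from each group of the wider list the genes past the threshold, or else the 1 with the smallest p. For Slc12a3 and Wnk4 the 5 nearest genes with a mean of at least 1 CPM are named.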

Additional observations from a re-analysis of the deposited data

Results flagged for a closer look

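A library was looked for that stood far from the other 3 of its group, in 40 sets of 4 values (9 genes and 11 ratios in each genotype), where chance gives about 2 (1 in 20), and 2 were found. Wnk4 measured 138.8 CPM in KO replicate 4, against 163 to 167 CPM in the other 3 KO libraries. The log2 ratio of Slc12a3 to Cab39 was 0.82 in KO replicate 3, against 1.19 to 1.21 in the other 3 KO libraries.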

How the results depend on the processing

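Slc12a3 was called in 16 of 19 alternatives and was negative in all 19, with log2 fold changes of -1.06 to -0.83, -0.96 to -0.83 when 1 library was left out (adjusted p 0.00147 to 0.0359). It missed the threshold without both Xist libraries (adjusted p = 0.0715) and with limma on log2(TPM + 1) and log2(TPM + 0.1) (adjusted p = 0.0796 and 0.0787). The count of members called was accordingly 0 in these 3 fits, 2 with DESeq2 and 1 in every fit that left out 1 library. The count over all genes was 15, and 154 with DESeq2, 27 with no filter on low counts, 5 with either TPM fit, 3 without both Xist libraries and 10 to 52 with 1 library left out, the 52 without WT replicate 4, and 29 without KO replicate 3. Of the wider list 2 were called with DESeq2, and 1, Ppp1r1a, with no filter (adjusted p = 0.00943) or without KO replicate 1 (adjusted p = 0.0224), so 0 to 1 with 1 library left out. Cul3 and Oxsr1 turned negative on the TPM scale, to -0.092 and -0.051 with a pseudocount of 1 and to -0.094 and -0.057 with 0.1, where the median over all genes tested was -0.11. Cab39l ran from -0.083 to 0.024 with 1 library left out, and was positive without KO replicate 2 (0.0026) or KO replicate 3 (0.024). The cause of these changes was not tested. The ratios of Slc12a3 to the regulators were negative in all 12 alternatives each, but most of these could not have turned the sign. Where all KO libraries lay below all WT libraries, leaving libraries out keeps the difference negative. The replicate block keeps the mean difference, and counts follow TPM up to a factor per gene and per library. The ratio to Klhl3 moved by more than 1 SD with log2(TPM + 1), to -0.63 against -0.49. Leaving out 1 library gave -0.81 to -0.67 for Wnk1, -0.57 to -0.36 for Wnk4, -0.54 to -0.43 for Klhl3 and -1.05 to -0.94 for Oxsr1. With 3 against 4 libraries the exact test used here, which doubles the smaller one-sided p, cannot pass 0.05. The labels number replicates 1 to 4 in both groups, but same-numbered libraries did not deviate together (correlations over genes of 0.027, -0.080, 0.037 and 0.021, and KO 1 was closest to WT 4), so the numbers were not taken as pairs. With a replicate block edgeR called 10 genes in all and 1 member (Slc12a3, adjusted p = 0.0448), and the ratios could not go below an exact p of 0.125.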

Other observations

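Sorl1 and Nr3c2, genes of the wider list, varied widely among the libraries of both genotypes. Sorl1, which encodes a sorting receptor known to affect cotransporter phosphorylation in the thick ascending limb, measured 258, 195, 37.1 and 45.6 CPM in KO 1 to 4, against 68.1, 33.2, 263 and 108 CPM in WT 1 to 4. Nr3c2, the mineralocorticoid receptor gene, measured 35.8, 19.9, 10.6 and 16.5 CPM in KO 1 to 4, against 21.4, 12.8, 37.7 and 16.6 CPM in WT 1 to 4. KO replicate 1 and WT replicate 3 were the highest of their groups for both genes. The intervals of the fold change were correspondingly wide, from -1.91 to 2.27 for Sorl1 and from -1.12 to 0.92 for Nr3c2 on the log2 scale. The fold change itself turned on single libraries: it was 0.18 for Sorl1 and -0.10 for Nr3c2, 0.94 and 0.29 without WT replicate 3, -0.35 and -0.50 without KO replicate 1, and 0.70 and 0.31 without KO replicate 2 and WT replicate 3 together. Both genes were picked out after their values were seen.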
